A study of Mus musculus with 18 samples.

Results

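Nup98, Phf23 and Vav1 are the mouse genes tied to the transgenes of this series, Nup98 and Phf23 as fusion genes and Vav1 through its regulatory elements. Leukemias of 17 mice labelled as NP23-NHD13 double transgenic on the C57Bl6-NIH background were exome sequenced, 11 from thymus and 6 from bone marrow, all described as thymic acute myeloid leukemia, and each was compared with the tail of 1 unmatched wild-type mouse of that background, which carries neither transgene. NP23 and NHD13 stand for fusions of the nucleoporin NUP98 with PHF23 and with HOXD13, so that all 17 leukemias carry both fusions and no leukemia carries only 1 of them. The mouse numbers end in NN, which the labels do not explain, in 9 leukemias and do not in 8, which are called plain here. The labels give neither the ages of the mice nor the promoter of the transgenes. All calls in the 3 genes were taken, whatever their annotation: 28 of 2653 calls, at 8 of 2101 sites, where a site is a position with its alternative allele. Of these calls, 9 fell in Nup98, 15 in Phf23 and 4 in Vav1, in 12 of the 17 leukemias. The number altering a protein was 0, and 0 were marked as known database variants. The shares of all calls with either property were not computed, so these counts are not read as a trait of the 3 genes.

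Nup98 encodes a precursor that is cleaved into NUP98 and NUP96, both parts of the nuclear pore, and the phenylalanine-glycine repeats of the NUP98 part are what leukemia fusions join to a partner. PHF23 carries a PHD finger, a fold that reads methylated lysine 4 of histone H3, and HOXD13 carries a DNA-binding homeodomain. Fusions of this kind are known for keeping HOX genes active in blood progenitors. VAV1 is a guanine nucleotide exchange factor that is largely limited to blood cells, and regulatory elements of its gene have long been used to drive transgenes there, those of NP23 and NHD13 among them. Reads of a transgene that resembles a mouse gene can align to that gene, so in this table a read from the chromosomal gene and a read from a transgene cannot be told apart.

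**Figure D1:**
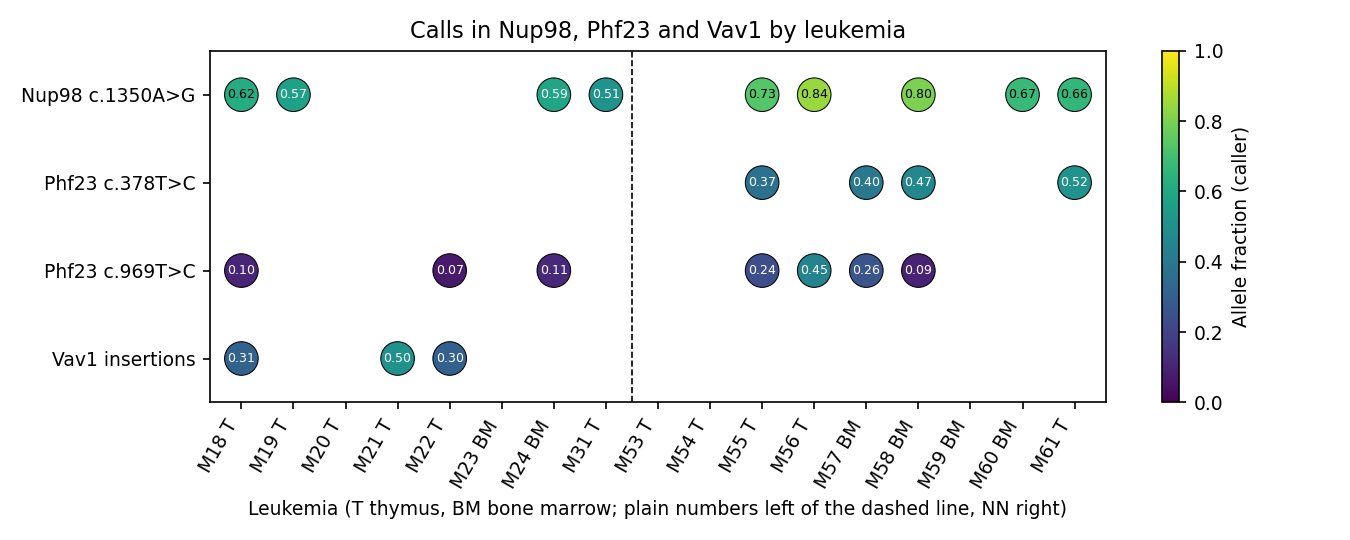
Allele fraction estimated by the caller (colour and printed value) for the Nup98 site, 2 Phf23 sites and the Vav1 insertions (rows; for M22 the first of 2 calls) in the 17 leukemias (columns); an empty place is a site not listed. The Nup98 site was listed in 9 leukemias on both sides of the dashed line, Phf23 c.378T>C in 4 NN leukemias and the Vav1 insertions in 3 plain leukemias.

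Depth set the precision of every value. The median depth over all calls of a leukemia ran from 49 reads (M21) to 148 reads (M18), and the depth of the wild-type tail at called sites had a median of 43 reads. The 5 leukemias with no call in the 3 genes, M20, M23, M53, M54 and M59, had median depths of 63 to 130.5 reads, within the range of 49 to 148 reads of the 12 with one. A site that is not listed was not called or was not among the rows analysed here, and its allele fraction is unknown. Only M18 had calls in all 3 genes, and 6 leukemias had calls in Nup98 and Phf23 (M18, M24, M55, M56, M58 and M61).

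Nup98 carried 1 site, a synonymous change of glycine 450 (c.1350A>G, Gly450Gly), in exon 12 of 33 of a coding sequence of 5451 bases for 1816 residues. It lies at mm10 chromosome 7, position 102169472, in the gene that RefSeq places at 102119400 to 102210166 on GRCm38.p6. The site was listed in 4 plain leukemias (M18, M19, M24 and M31) and 5 NN leukemias (M55, M56, M58, M60 and M61), 6 of them from thymus and 3 from bone marrow.

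The allele fraction of the Nup98 change was lowest in M31 at 0.513, had a median of 0.66 and was highest in M56 at 0.844. In M56 the changed base was read in 267 of 321 reads (83.2%, 95% Clopper-Pearson interval 78.6% to 87.1%), and in M31 in 63 of 144 reads (43.8%, interval 35.5% to 52.3%). M58 was next to M56, with 110 of 137 reads (80.3%, interval 72.6% to 86.6%). The changed base was read more often than the reference base in 8 of 9 leukemias, and less often in M31. The wild-type tail had 0 of 20 reads with the change, which allows a share of up to 15%. These intervals and limits describe the counting of reads alone. They take each read as a separate molecule, and PCR copies were not examined here. Changed reads came from both read orientations in all 9 leukemias, with 40.1% (M19) to 54.9% (M60) in the first-read-forward orientation, against 35.2% to 58% of reference reads.

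The Nup98 site was also covered unusually deeply. Its depth divided by the leukemia's median depth, called relative depth here, was lowest in M24 at 1.92 (175 reads against a median of 91), had a median of 2.48 and was highest in M56 at 4.20 (321 reads against 76.5). All 9 leukemias lay at 1.5 or more, which 22.4% of all calls in the table reached, and 8 of 9 lay at 2 or more, against 11.3% of calls. Between 85.5% (M58) and 97.1% (M56) of a leukemia's calls had a lower depth than this site. In the wild-type tail the site had 20 reads, 0.351 to 0.526 of the tail's median depth over the calls of the same leukemia. There the site was covered less than most called sites.

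Set against the wild-type tail, the relative depth of the Nup98 site was 4.60 times as high in M31, the lowest, 5.07 times at the median and 9.65 times in M56, the highest. A ratio of 1.5 or more was reached in 9 of 9 leukemias and by 18.9% of all calls, and a ratio of 2 or more in 9 of 9 and by 8.33%. Among the 68 sites listed in at least 3 leukemias the median ratio of the Nup98 site ranked 1, ahead of Sult2a6 with 2.93, the median over the 68 sites was 1.02, and 25% of them had a median of 1.5 or more. The 15 other such sites with 20 or fewer reads in the wild type had a median ratio of 1.63, so sites thinly covered in the tail tended to lie above 1. With 1 wild-type mouse there is no test of this ratio. The 20 wild-type reads alone, with an exact Poisson interval of 12.2 to 30.9, place the median ratio anywhere from 3.29 to 8.31. Scaled by sites listed in at least 10 leukemias the median ratio was 6.89, again ranking 1.

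**Figure D2:**
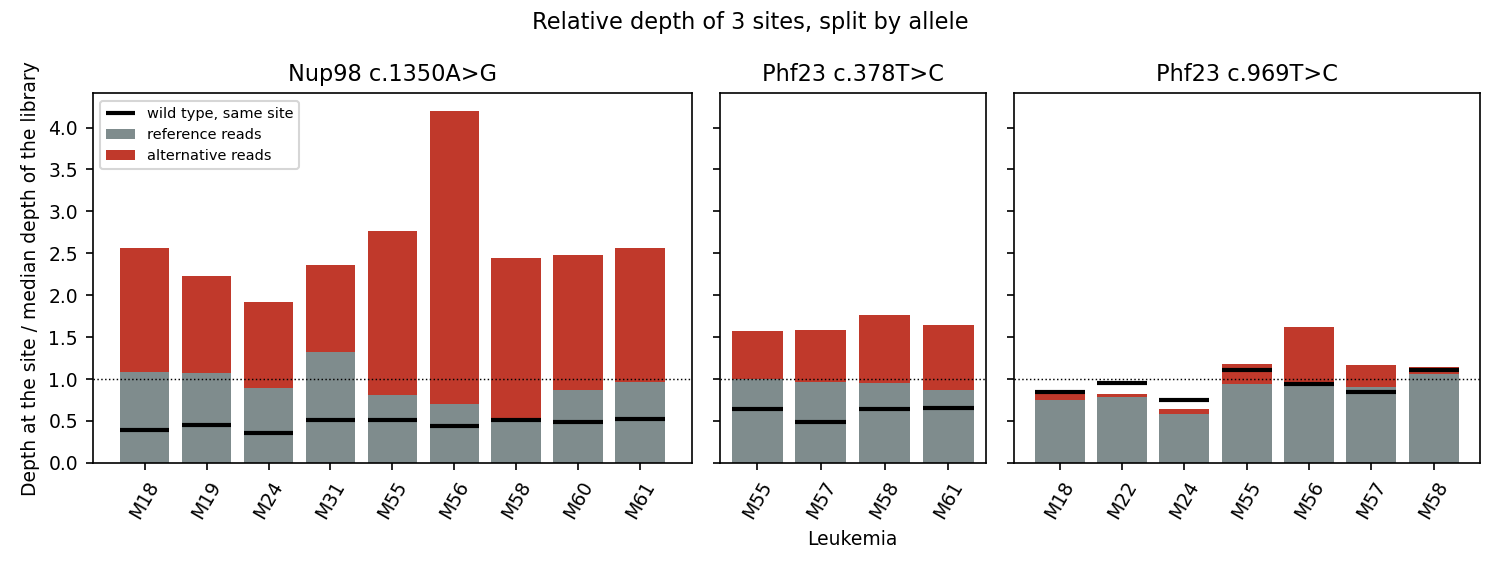
Depth at 3 sites divided by the median depth of the leukemia (vertical axis), as stacked bars of reference reads (grey) and alternative reads (red), for each leukemia with the site listed; black marks give the wild-type tail at the same site, divided by its own median depth. At the Nup98 site the alternative reads alone came to 1.03 to 3.49 times the leukemia's median depth, and the reference reads to 0.482 to 1.33 times.

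Split by allele, the alternative reads of the Nup98 site alone amounted to 1.03 times the leukemia's median depth in M24 and M31, the lowest, and to 3.49 times in M56. The reference reads amounted to 0.482 times in M58, 0.89 times at the median and 1.33 times in M31. Relative to the wild-type tail the reference reads alone had a median ratio of 1.83, from 0.94 in M58 to 2.76 in M18. The larger part of the ratio lay in reads with the changed base in 8 of 9 leukemias. In M31 it did not, with 2.589 of 4.603 in reference reads, and in M19 the parts were nearly equal (2.347 of 4.905 in reference reads). Reference reads alone reached a ratio of 1.5 or more in 8 of 9 leukemias, all but M58, against 11.9% of all calls. At 2 or more there were 4 of 9, all plain, against 4.41% of calls.

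Phf23 carried 3 synonymous sites, all in exon 4 of 5 of a coding sequence of 1206 bases for 401 residues. RefSeq places the gene on chromosome 11 at 69995766 to 70000011 of GRCm38.p6. Those described here are c.378T>C (Thr126Thr, position 69998519) and c.969T>C (Asp323Asp, position 69999110), which lies 591 bases after it. Of 451 synonymous sites in the table, 15 were listed in 3 or more leukemias, in 13 genes, and Phf23 was the 1 gene with more than 1 of them.

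Phf23 c.378T>C was listed in 4 leukemias, M55 and M61 from thymus and M57 and M58 from bone marrow, all NN. The changed base was read in 55 of 151 reads in M55, 55 of 141 in M57, 46 of 99 in M58 and 54 of 114 in M61. The allele fractions were 0.373, 0.401, 0.466 and 0.515 in the same order, a narrow range compared with c.969T>C. The wild-type tail had 0 of 25 reads with the change, which allows a share of up to 12%.

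Relative depth at c.378T>C was 1.57 in M55, 1.58 in M57, 1.77 in M58 and 1.64 in M61, so 4 of 4 leukemias lay at 1.5 or more, against 22.4% of all calls, and 0 of 4 at 2 or more, against 11.3%. The ratio to the wild-type tail was 2.45 in M55, 3.23 in M57, 2.76 in M58 and 2.49 in M61. Its median of 2.63 ranked 4 of the 68 sites. The 25 wild-type reads place the median between 1.78 and 4.06. Reference reads alone stood at 0.863 to 1 times the leukemia's median depth, and changed reads added 0.573 to 0.821 times. Scaled by sites listed in at least 10 leukemias, the median ratio was 4.42.

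Phf23 c.969T>C was listed in 7 leukemias, 4 from thymus (M18, M22, M55 and M56) and 3 from bone marrow (M24, M57 and M58). Its allele fraction was lowest in M22 at 0.068, had a median of 0.111 and was highest in M56 at 0.447. In M22 the change was read in 6 of 109 reads (5.5%, interval 2.05% to 11.6%), in M58 in 5 of 64 (7.81%, interval 2.59% to 17.3%) and in M56 in 51 of 124 (41.1%, interval 32.4% to 50.3%). The wild-type tail had 0 of 43 reads with the change, which allows a share of up to 6.98%. The change was thus a minority of the reads in every listed leukemia, and in M22 its share lay below the limit set by the tail's count.

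Where a leukemia had both Phf23 locations, the fractions differed between them. The allele fraction at c.378T>C was 1.57 times that at c.969T>C in M55 (0.373 against 0.237) and 1.55 times in M57 (0.401 against 0.258). In M58 it was 4.96 times as high (0.466 against 0.094, or 46 against 5 changed reads). M56 had the highest fraction of c.969T>C and no listing of c.378T>C, and M61 had c.378T>C without c.969T>C.

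Depth at c.969T>C was close to that of other called sites. Relative depth was lowest in M24 at 0.637, had a median of 1.14 and was highest in M56 at 1.62, the 1 leukemia of 7 at 1.5 or more. The median ratio to the wild-type tail was 1.04, ranking 34 of 68, and 1 of 7 leukemias reached 1.5. Scaled by sites listed in at least 10 leukemias this median was 1.64, ranking 28 of 68, with 4 of 7 leukemias at 1.5 or more. The share of all calls at 1.5 or more was not computed on that scale. Reference reads ran from 0.582 to 1.05 times the leukemia's median depth.

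**Figure D3:**
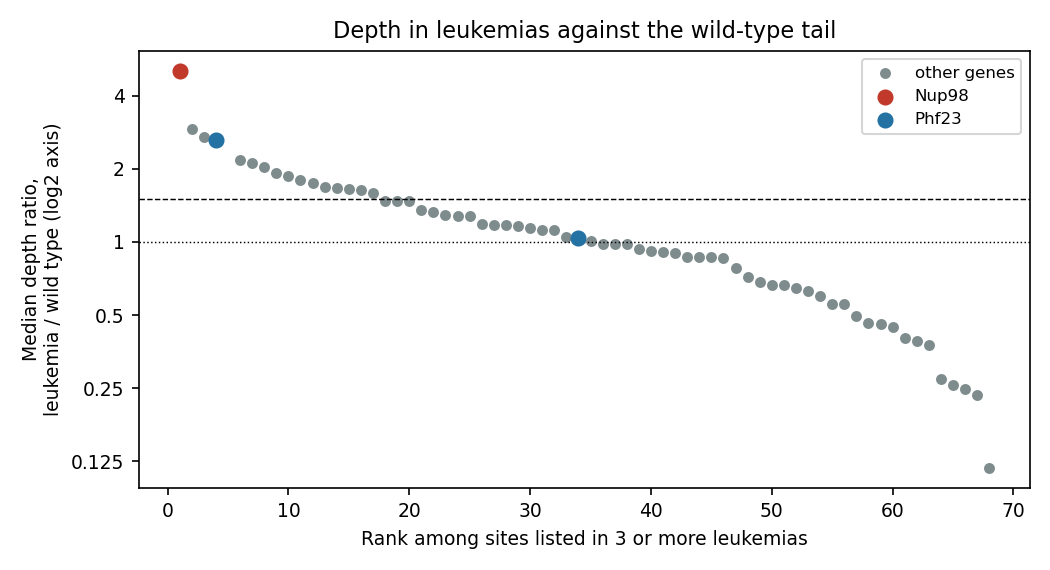
Median over leukemias of the depth ratio between leukemia and wild-type tail, each scaled by its own median depth (vertical axis, log2 scale), for 67 of the 68 sites listed in at least 3 leukemias in order of that ratio; dotted line at 1, dashed line at 1.5. The Nup98 site stands first with 5.07, Phf23 c.378T>C has a ratio of 2.63, and Phf23 c.969T>C lies at 1.04.

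Vav1 carried only insertions, 4 calls in the 3 leukemias M18, M21 and M22, all from thymus and all plain. They were annotated in the 5′ untranslated region in exon 1 of 27, at positions 57279190 (3 calls) and 57279192 (1 call) of chromosome 17, in the gene that RefSeq places at 57279100 to 57329236. The insertions had 64 bases in M18 and 23 bases in M21, and M22 had calls of 8 bases at the first and 68 bases at the second position. Of 259 distinct insertions in the table the median length was 7 bases, and 2 were as long as that of M18 or longer, both in Vav1.

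The Vav1 insertions were overlapping readings of a common sequence. The 23 bases of M21 were identical to the start of the 64 bases of M18, as were the first 8 bases of M22. The calls of M22 were placed on the same haplotype by the caller, 2 genome bases apart. Joined across these bases, of which the table names the second and the best of the 4 possible bases was taken for the first, they gave 78 bases. The first 64 of these were identical to the whole M18 insertion, and 14 more followed. Any other base ended the match after 8 bases. Taking the best base fixes this outcome, so it adds nothing to the match.

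**Figure D4:**
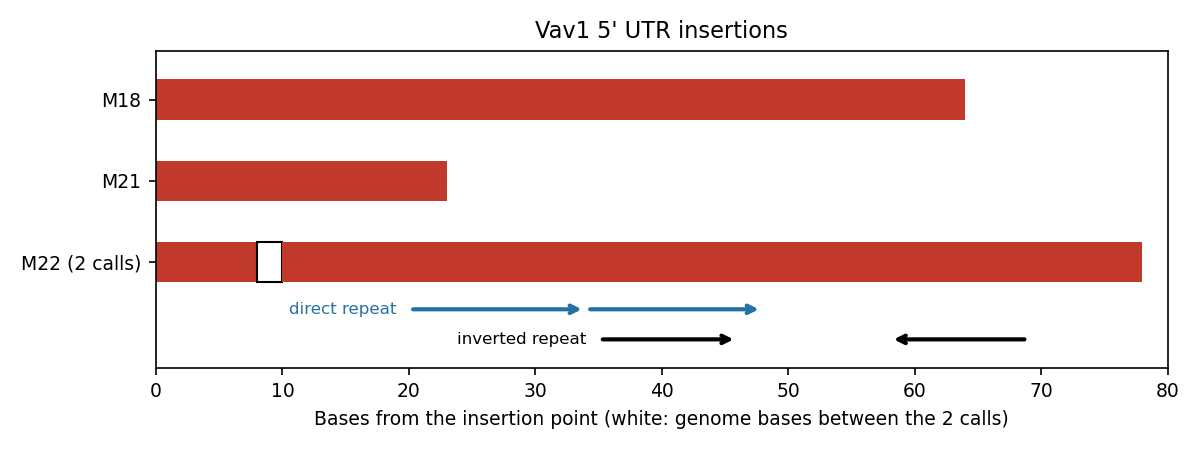
Length and overlap of the Vav1 insertions (red bars; horizontal axis, bases from the insertion point; white box, the 2 genome bases between the M22 calls), with the longest direct repeat (blue arrows) and the longest inverted repeat (black arrows) of the joined M22 insertion. The M21 bar of 23 bases and the M18 bar of 64 bases match the start of the M22 bar of 78 bases.

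The joined insertion held a direct repeat of 14 bases, with copies starting at bases 21 and 35, and an inverted repeat of 11 bases, with arms starting at bases 36 and 59 and 12 bases between them. As background, inverted arms around a short spacer beside a further copy of 1 arm are also the layout of FRT, the target site of the Flp recombinase that is common in engineered constructs. No reference copy of FRT was compared here, and the inserted bases are not printed. Among the 23 other calls with 20 or more inserted bases, and on either strand of 32851 RefSeq promoter windows, 0 shared a stretch of 20 bases with it.

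Reads behind the Vav1 insertions were few. The insertion was carried by 14 of 44 reads in M18 (31.8%, interval 18.6% to 47.6%), by 3 of 7 in M21 (42.9%, interval 9.9% to 81.6%) and, at the first position, by 11 of 41 in M22 (26.8%, interval 14.2% to 42.9%). The second M22 call had 10 of 40 reads (25%, interval 12.7% to 41.2%). The caller's allele fractions were 0.314 in M18, 0.5 in M21 and 0.303 for both M22 calls. These intervals overlap widely, so the 3 leukemias were not distinguishable at this depth. In M21 all 3 inserted reads had the same orientation, while those of M18 were split 7 and 7.

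Unlike the Nup98 site, the Vav1 position was thinly covered in the 3 leukemias with a call and in the wild-type tail. Relative depth was 0.297 in M18, 0.143 in M21 and 0.311 in M22, and the wild-type tail had 10 reads, 0.196 to 0.222 of its median. The ratio to the tail was 1.52 in M18, 0.671 in M21 and 1.40 in M22, on both sides of 1. With 0 of 10 inserted reads the tail allows a share of up to 30% at this position, about the share measured in M18 and M22.

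Thymus and bone marrow were compared first, since the labels give tissue as the difference between leukemias. The allele fraction of the Nup98 change averaged 0.656 ± 0.119 in thymus (SD, n = 6) and 0.688 ± 0.108 in bone marrow (SD, n = 3), a difference within the spread (p = 0.714, adjusted p = 0.907, two-sided exact permutation test with Benjamini-Hochberg adjustment over 43 sites). That of Phf23 c.969T>C averaged 0.214 ± 0.172 (SD, n = 4) and 0.154 ± 0.0902 (SD, n = 3) (p = 0.686, adjusted p = 0.907, exact permutation test). For allele fraction 0% of the 43 sites passed, with 0 at unadjusted p under 0.05. The thymus minus bone marrow difference in mean log2 relative depth was 0.26 for Nup98 (adjusted p = 0.763, exact permutation test) and 0.17 for Phf23 c.969T>C (adjusted p = 0.872, exact permutation test), while 0% of 43 sites passed. At unadjusted p under 0.05 there were 4.65% of the 43 sites, and at 2.33% the tissues did not overlap. Without M56, the differences for Phf23 c.969T>C turned to -0.0183 in allele fraction and -0.03 in log2 relative depth.

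The share of leukemias with a listing likewise did not separate the tissues. The Nup98 site was listed in 6 of 11 thymus and 3 of 6 bone marrow leukemias (p = 1, Fisher exact test). Phf23 c.969T>C was listed in 4 of 11 and 3 of 6 (p = 0.644), and Phf23 c.378T>C in 2 of 11 and 2 of 6 (p = 0.584). The Vav1 insertions, counted as 1 location, were listed in 3 of 11 and 0 of 6 (p = 0.515). Of the 61 sites tested 0% passed after adjustment and 3.28% at unadjusted p under 0.05.

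The mouse number series of the labels were then compared. The allele fraction of the Nup98 change ran from 0.513 to 0.617 in the 4 plain leukemias and from 0.66 to 0.844 in the 5 NN leukemias, so the series did not overlap. Plain leukemias averaged 0.572 ± 0.0438 (SD, n = 4) and NN leukemias 0.742 ± 0.08 (SD, n = 5). The difference of -0.17 had p = 0.0159 and adjusted p = 0.0982 (two-sided exact permutation test, Benjamini-Hochberg adjustment over 33 sites), and so did not pass the adjusted threshold of 0.05. Series that do not overlap in allele fraction were found at 12.1% of the 33 sites, and 3.03% passed the adjusted test.

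**Figure D5:**
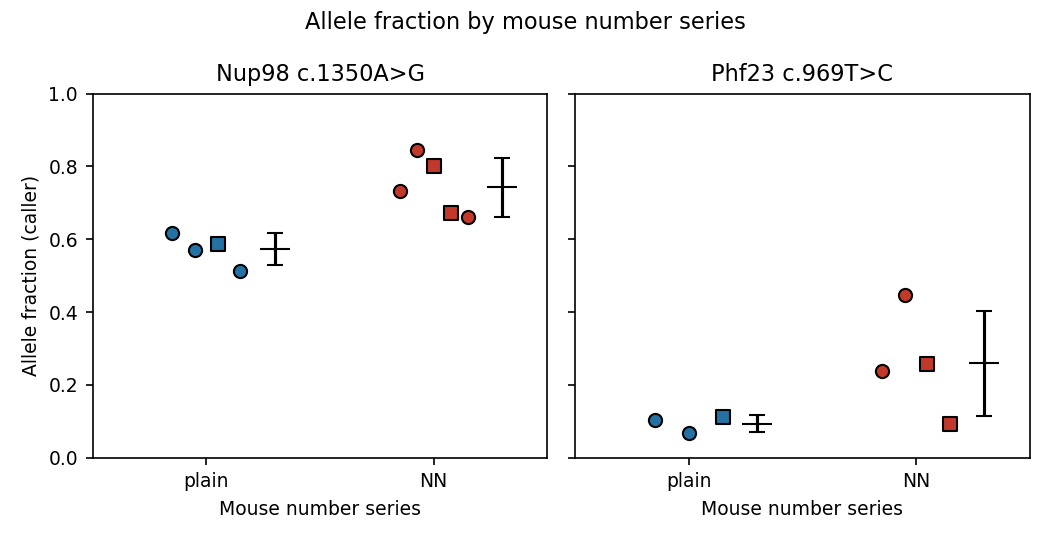
Allele fraction (vertical axis) of the Nup98 change and of Phf23 c.969T>C in plain (blue) and NN (red) leukemias, circles from thymus and squares from bone marrow, with mean and SD in black. For Nup98 the 4 plain values lie below 0.62 and the 5 NN values at 0.66 or above; for Phf23 c.969T>C the series overlap.

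Of the reads behind that difference, changed reads lay higher in NN leukemias, while reference reads lay lower and overlapped between the series. Changed reads alone were not tested. In relative depth over all reads, 36.4% of 33 sites did not overlap between the series. The Nup98 site did overlap on that measure, with 1.92 to 2.57 in plain and 2.45 to 4.20 in NN leukemias. The share of sites without overlap in changed reads alone was not computed. The changed reads of the Nup98 site stood at 1.03 to 1.49 times the leukemia's median depth in plain and at 1.60 to 3.49 times in NN leukemias. The reference reads stood at 0.89 to 1.33 times in plain and 0.482 to 0.964 times in NN leukemias. The plain minus NN difference in mean log2 relative depth was -0.32 over all reads (adjusted p = 0.138, exact permutation test) and 0.53 over reference reads alone (p = 0.0397, adjusted p = 0.101, exact permutation test), neither past the threshold.

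For Phf23 c.969T>C the allele fraction averaged 0.094 ± 0.0229 in plain (SD, n = 3) and 0.259 ± 0.145 in NN leukemias (SD, n = 4), and M58 (0.094) lay within the plain range of 0.068 to 0.111 (p = 0.114, adjusted p = 0.343, exact permutation test). Relative depth at this site did not overlap, with 0.637 to 0.826 in plain and 1.14 to 1.62 in NN leukemias. The log2 difference of -0.74 had p = 0.0286, the smallest that 3 against 4 leukemias can give, and adjusted p = 0.0589 (exact permutation test). Scaled by sites listed in at least 10 leukemias it was -0.645 (p = 0.0571, adjusted p = 0.0943, exact permutation test). Differences of this kind were frequent in the table: 36.4% of 33 sites did not overlap between the series in relative depth, 36.4% passed the adjusted test, and 24.2% passed with the lower depth in plain leukemias.

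Listing by series went in opposite directions for Phf23 c.378T>C and the Vav1 insertions, neither past the adjusted threshold. Of plain leukemias 0 of 8 had Phf23 c.378T>C listed, and of NN leukemias 4 of 9 (p = 0.0824, adjusted p = 0.193, Fisher exact test over 61 sites). The Vav1 insertions as 1 location occurred in 3 of 8 plain leukemias and in 0 of 9 NN (p = 0.0824, adjusted p = 0.198, Fisher exact test over 60 locations). The Nup98 site was listed in 4 of 8 and 5 of 9 (p = 1), and Phf23 c.969T>C in 3 of 8 and 4 of 9 (p = 1). Of 61 sites, 9.84% passed after adjustment (26.2% at unadjusted p under 0.05), none of them in the 3 genes.

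Tissue was compared within each series as far as the listings allowed. For the Nup98 site and for Phf23 c.969T>C no series held 3 listed leukemias of each tissue, so no within-series test of allele fraction or depth could be made. Relations between sites across leukemias could not be tested either, since the most leukemias that any of 28 pairs of sites shared was 5, and 6 were required.

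Sites with carriers most like those of the 3 genes were looked up by the Jaccard index, the leukemias with both sites over the leukemias with either. For Nup98 they included Ddx42 Asp78Glu (9 of 15, index 0.6) and a P2rx1 splice region site (8 of 14, index 0.571). For Phf23 c.378T>C they were Scube3 Arg458Gln (3 of 4, index 0.75), an upstream site of A530032D15Rik (3 of 5, index 0.6) and Ankrd33b Pro61Pro (4 of 7, index 0.571). For Phf23 c.969T>C they were Naip5 Val1120Val (6 of 10, index 0.6), an intergenic site between 1700091H14Rik and Gm17026 (4 of 8, index 0.5) and Ddx42 Asp78Glu (7 of 15, index 0.467). None had the same set of leukemias as a site of the 3 genes. Ddx42 Asp78Glu was listed in 15 of 17 leukemias and the P2rx1 site in 13, and sites listed that widely share carriers with most other sites.

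Lists of genes related to the fusions were counted next. Over all calls 1434 genes were named, and the share of all captured genes with a call was not computed. The counts below therefore do not tell whether a list had more or fewer calls than other genes. Of 30 other nucleoporin genes 4 had calls, 1 each, and 2 of the calls altered a protein: in Ahctf1, whose product brings pore assembly to chromatin, in M18 (allele fraction 0.024), and in Nup210, a membrane nucleoporin, in M57 (0.051). Of 46 HOX, MEIS and PBX genes, Hoxd13 among them, 0 had a call in the rows analysed here. Of 18 other known NUP98 fusion partners 4 had calls, and protein-altering ones fell in the methyltransferase genes Nsd1 (10 sites) and Kmt2a (1 site, M31, allele fraction 0.235) and in the homeobox gene Prrx1 (1 site, M59, 0.056). The single nucleoporin calls lay at 0.708 to 1.26 times the wild-type tail in relative depth, below every leukemia's value at the Nup98 site. The 28 Nsd1 calls, all in NN leukemias and at 19 sites, ran from 0.563 to 7.15 on that scale, and 18 of them reached 1.5.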

How the data were processed

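Exome libraries were made by a Nextera protocol with a SureSelectXT mouse capture kit, per the labels' protocols. Tools listed in the submitters' processing notes, with no role or order, are BWA 0.7.17, GATK and bcl2fastq 2.17.1.14; the builds there are GRCm38 and mm10. MuTect2 is named as the caller in the labels, with a GATK version not given in the sources used here. Raw read counts for each allele and for total depth were deposited by the authors, and total depth equalled the sum of both alleles in all rows. Deposited beside them is the caller's allele fraction, an estimate that need not equal alternative reads over depth. Another 24 columns of per-sample values were not used.

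Depth was divided by the leukemia's median over all its calls, and by the same ratio in the wild-type tail. Sites listed in 3 to 14 leukemias were compared with Fisher's exact test, and sites listed in at least 3 leukemias of each group with a two-sided exact permutation test of the difference in means, with Benjamini-Hochberg adjustment over all such sites of the table (SciPy 1.17.1, Python 3.11.15). Both steps were tested on simulated data. The group sizes of the permutation tests reported for Nup98 and Phf23, 3 to 6 listed leukemias, were not tested in that way. At these sizes the smallest p that the exact permutation test can give ran from 0.00794 to 0.0286. Each leukemia comes from a separately numbered mouse. Exon ranks that a spreadsheet had turned into dates were decoded. Alternatives were another depth scale, a threshold of 2 in place of 1.5, reads in place of the caller's fraction, at least 20 reads, and each leukemia left out. Leaving out a leukemia gave a value for a site only where 3 listed leukemias of each group remained. Reference reads alone, calls within 10 bases as 1 location, and leaving out M56 were added after the data were seen. The rule named all sites of the 3 genes, the 3 genes whose carriers were most alike and list genes with protein-altering calls; some of these items are not reported here. The genes, lists and tests were chosen with earlier results of these data known. No protein sequence or whole genome was used here, only RefSeq gene positions and promoter windows, and no sequence is printed.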

Additional observations from a re-analysis of the deposited data

Results flagged for a closer look

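M56, a thymus leukemia of the NN series, stood apart from its group in depth. Its relative depth at the Nup98 site, 4.20, was far from the next thymus and the next NN leukemia, both M55 at 2.77. Its ratio to the wild-type tail at that site, 9.65, was likewise far above the next NN leukemia at 5.40. At Phf23 c.969T>C its relative depth of 1.62 was far above the next NN leukemia at 1.18. M56 also had the highest allele fraction at both sites, 0.844 and 0.447. Dixon's test was applied to 21 groups of values, and chance marks about 1 group in 20. The values at a site share reads, and so the marks are not independent. Without M56 the median relative depth was 2.46 at the Nup98 site and 0.984 at Phf23 c.969T>C.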

How the results depend on the processing

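Of 209 values under other settings, 190 were rated the same. Differences had to keep their direction and side of the threshold, and medians had to stay within the spread between leukemias. Counts had to stay within a factor of 1.5. Leaving out 1 leukemia was rated the same in 111 of 114 cases, many of them counts over all sites tested and not values of the 3 genes. With the median over sites listed in at least 10 leukemias, the ratio to the wild type was 6.89 for Nup98, 4.42 for Phf23 c.378T>C and 1.64 for c.969T>C. Relative depth for c.378T>C was 2.14, and 3 (relative depth) and 4 (ratio) of 7 leukemias reached 1.5 at c.969T>C, whose median ratio ranked 28 of 68. With a threshold of 2, 0 leukemias were left at c.378T>C and at c.969T>C for relative depth, and 0 at c.969T>C for the ratio. From reference reads alone, relative depth was 0.89 for Nup98 and 0.956 for c.378T>C, the ratios were 1.83 and 1.52, the plain minus NN difference for Nup98 reversed to 0.533, and 3 in place of 12 sites differed between the series in depth. With at least 20 reads, 3 in place of 6 sites differed in listing. The cause of these shifts was not tested. Without 1 leukemia in turn, the plain minus NN difference for Nup98 ran from -0.191 to -0.145 in allele fraction (adjusted p 0.157 to 0.191, exact permutation test) and from -0.386 to -0.181 in log2 relative depth. For c.969T>C it ran from -0.22 to -0.102 and from -0.791 to -0.623. There only the 4 NN leukemias could be left out, since each group needs 3 listed leukemias. Thymus minus bone marrow ran from -0.0693 to -0.00307 and from 0.136 to 0.319 for Nup98, and for c.969T>C from -0.0183 to 0.108 and from -0.033 to 0.296, the reversals being without M56. For the same reason only thymus leukemias could be left out between tissues, 6 for Nup98 and 4 for c.969T>C. Sites past the adjusted threshold ran from 1 to 2 for allele fraction (2 without M55) and from 8 to 12 for depth between the series, and were 0 between the tissues. Wild-type depths of 10 to 43 reads limit every ratio. Between tissues, the Nup98 listing difference was 4.55 percentage points over all leukemias and 0 among plain ones. No paired analysis was possible because the labels give each leukemia its own mouse and no shared replicate number.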
